A study of Mus musculus with 7 samples.

Results

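miR-204 and miR-211 are a pair of related microRNAs (miRNAs), short RNAs that guide repression of messenger RNAs through a seed near their 5′ end. They were picked by name, as the 2 of the 696 mouse miRNAs on the array whose listed name is mmu-miR-204 or mmu-miR-211. The rule uses no measured value, but it was set with earlier results of these data known. miR-204 was detected on 7 of 7 arrays and was lower on the arrays labelled treated, by 0.56 on the log2 scale. Directions follow the labels, and which label is the obstructed kidney is not settled. miR-211 was detected on 0 of 7 arrays, so that it has no fold change here.

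The series compared kidneys of male C57BL/6 mice, 9 to 12 weeks old, at day 28 after ligation of the left ureter (unilateral ureteral obstruction, UUO, a model of kidney fibrosis) or after a sham operation without ligation. 7 Agilent miRNA arrays, each hybridized in 1 colour with Cy3-labelled total RNA, were analysed. 3 carry the group label treated (replicates 1, 3 and 4) and 4 the label non-treated (replicates 1 to 4). The record does not say which label is which operation. The titles of the treated arrays start with S and those of the non-treated arrays with C. When treated is read as obstructed, the signs run opposite to those the study lists, so every direction here is labelled treated minus labelled non-treated. The study gives separate mice per group, but the labels do not tie an array to a mouse, and p-values measure only the spread between these samples. Both operations were done under pentobarbital, and strain and sex are the same in both groups.

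miR-204 lies inside the gene Trpm3 and miR-211 inside Trpm1, and each is processed from the transcript of its host, a channel of the melastatin family. miR-204 is known from epithelia, among them kidney tubules, the retinal pigment epithelium and the choroid plexus, whereas miR-211 is known from melanocytes and other pigment cells. Because the mature RNAs are almost identical, they share most of their predicted targets, and short hybridization probes may not separate them.

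The mature sequences are shown because their likeness decides what a probe can tell apart. They are taken from RefSeq with build GRCm38.p6, are written 5′ to 3′, and carry the seed (bases 2 to 8) in capitals. The array names give no arm, and the 5p arms are assumed here, as in older naming.
mmu-miR-204-5p: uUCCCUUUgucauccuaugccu
mmu-miR-211-5p: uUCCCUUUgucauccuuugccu
miR-204-5p lies on chr19:22750610-22750631 and miR-211-5p on chr7:64205831-64205852, both on the plus strand and both inside the span of the host gene. The RNAs share 21 of 22 bases. The only difference is A17U, given as the base of miR-204, the position counted from the 5′ end, and the base of miR-211. The seeds are identical.

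The hairpins are shown because the likeness ends with the mature strand, which is set in capitals in each.
mmu-mir-204: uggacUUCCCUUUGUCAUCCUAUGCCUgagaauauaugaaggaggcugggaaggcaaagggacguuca
mmu-mir-211: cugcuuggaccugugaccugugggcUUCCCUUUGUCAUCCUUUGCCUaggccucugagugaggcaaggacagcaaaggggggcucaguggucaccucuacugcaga
The hairpin of miR-204 has 68 bases (chr19:22750605-22750672) and that of miR-211 has 106 (chr7:64205806-64205911). Turning one hairpin into the other takes 52 single-base edits, and the opposite strands, miR-204-3p and miR-211-3p, differ by 7. The opposite strands were not analysed here.

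Outside this pair, 0 of 1677 other mouse mature miRNAs in RefSeq come within 5 edits of either sequence. The nearest, miR-7093-3p, is 7 edits from each, and the median distance to miR-204 is 14 edits. 1 other miRNA has the same seed.
mmu-miR-7670-3p: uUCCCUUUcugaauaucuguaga
It is 10 edits from each member and was not matched to a name on the array. Within 5 edits, each member is thus the only mature mouse miRNA of the RefSeq table close to the other.

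The 7 arrays share 1 slide and 1 scan, and 0 spots were saturated. Agilent's software detected 232 to 282 miRNAs per non-treated array and 193 to 214 per treated array. Before scaling, the 186 miRNAs found on every array had a mean log2 signal of 7.24 ± 0.40 (SD, n = 4) against 6.09 ± 0.32 (SD, n = 3), and each array was scaled to make these means equal. The spike-in controls differed less, with a mean log2 signal of 10.17 to 10.65 on non-treated and 10.02 to 10.57 on treated arrays. The arrays carry kidney tubule miRNAs, since miR-192 and miR-194 were detected on all 7, although miR-215 was detected on none. The number of arrays limits the precision.

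miR-204 is read by 2 probes of 10 spots each. Of its 140 spots over the 7 arrays, 138 were positive and significant against background, and 105 were well above it. On the arrays labelled non-treated, 75 of 80 spots were well above background, against 30 of 60 on those labelled treated. Before scaling, the signals of the probes summed to 69.0, 73.6, 44.3 and 64.2 on non-treated replicates 1 to 4, and to 19.7, 23.9 and 13.96 on treated replicates 1, 3 and 4. Every treated array thus lay below every non-treated array, with means of 62.8 ± 12.9 (SD, n = 4) and 19.2 ± 4.97 (SD, n = 3) on the linear scale. Part of this difference is shared by the other miRNAs on these arrays. Without scaling, the median log2 fold change over the 236 miRNAs tested was -1.20, beside -1.72 for miR-204. At a limma adjusted p below 0.01, 162 of the 236 were then called lower. Absence of overlap was counted over all miRNAs only after scaling, where 66.1% showed it.

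After scaling, miR-204 stood at 44.0, 43.1, 47.4 and 40.7 on the non-treated arrays and at 32.1, 29.8 and 27.1 on the treated arrays. The groups still did not overlap, and the lowest non-treated and the highest treated array were 0.34 apart on the log2 scale. Non-treated replicate 3 had the highest scaled value although its unscaled signal was the lowest of its group. The mean log2 signal was 5.45 ± 0.090 (SD, n = 4) against 4.89 ± 0.12 (SD, n = 3).

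The log2 fold change of miR-204, treated minus non-treated, was -0.56 (SE 0.076, 95% confidence interval -0.75 to -0.38), with an adjusted p of 6.69e-04 by limma with Benjamini-Hochberg adjustment over 236 miRNAs. This is a level 1.48-fold higher on the non-treated arrays. The exact 2-sided permutation test gave p = 0.0571, the smallest value that 35 splits of 3 against 4 arrays allow. In these bulk samples, fewer cells that make miR-204 and less miR-204 per cell cannot be told apart.

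The size of this change was moderate among the miRNAs tested. At the threshold of an adjusted p below 0.01, 129 of 236 miRNAs were called (54.7%), 56 of them higher and 73 lower on the treated arrays, so that 30.9% of all miRNAs tested were called lower as miR-204 was. The groups did not overlap for 156 of 236 (66.1%). miR-204 held rank 62 from the lowest fold change. Of the 73 miRNAs called lower, 53 fell further than miR-204 and 19 fell less, and their median log2 fold change was -1.0. The median over all 236 was -0.061, which places miR-204 0.50 below it on the log2 scale.

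**Figure D1:**
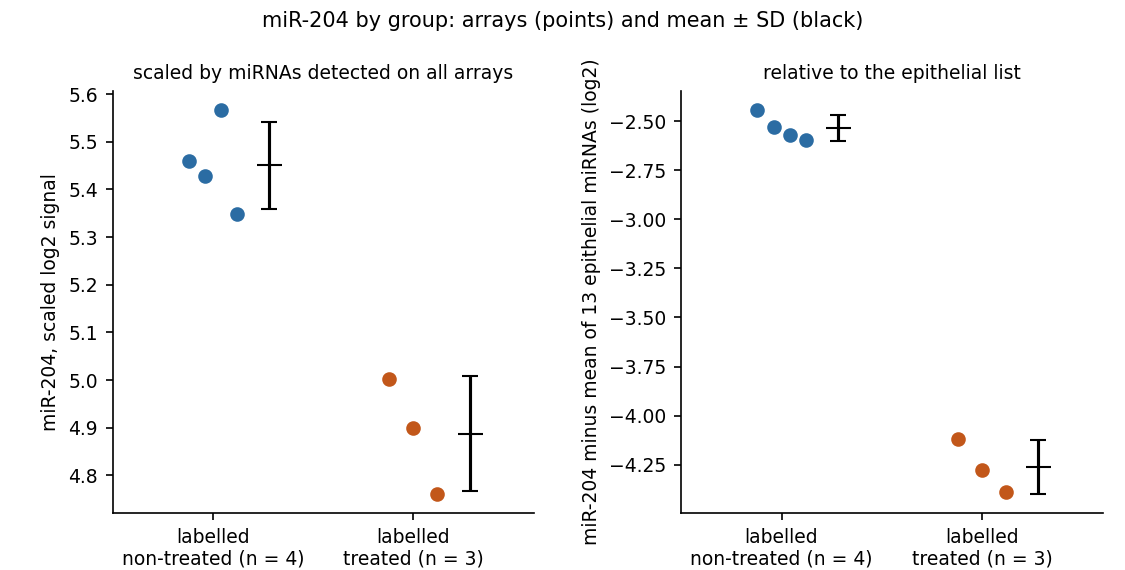
Left, scaled log2 signal of miR-204 on each array. Right, log2 signal of miR-204 minus the mean log2 signal of 13 epithelial miRNAs on the same array. Points are arrays (4 labelled non-treated, 3 labelled treated) and black bars the mean ± SD. The groups do not overlap in either panel. The means differ by 0.56 on the left and by 1.73 on the right, where the shift of the list itself is included. The axes do not start at 0.

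The scaling between arrays decides how large this change reads. Under 6 linear scalings, the log2 fold change of miR-204 lay between -1.73 and -0.31, while the median of all miRNAs moved between -1.21 and 0.092. The log2 difference of miR-204 from that median was -0.52 to -0.41 over the 6. A linear scaling shifts all miRNAs alike, so this difference could move only through the floor. Its narrow range is thus no check of the result. The split of calls moved as well, from 7 higher and 162 lower without scaling to 73 higher and 46 lower with the 75th percentile of all miRNAs. Under this last scaling the call of miR-204 was lost (log2 fold change -0.31, limma adjusted p = 0.0196), as it was with quantile normalization (-0.19, adjusted p = 0.109).

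The value crossed 0 in a setting that changed several things together. With median spot signals in place of the processed ones, normexp, a model-based background correction, and an offset of 50 added to every spot, the log2 fold change of miR-204 was 0.058 (limma adjusted p = 0.356), against -0.56 with the processed signals. For the brighter probe of miR-204, mean processed signals before scaling were 38.2 to 61.6 on the non-treated and 12.2 to 20.2 on the treated arrays. For the dimmer probe they were 6.11 to 12.0 and 1.77 to 3.63, beside an offset of 50 per spot. The parts of the signal column, the correction and the offset in this result were not tested apart.

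**Figure D2:**
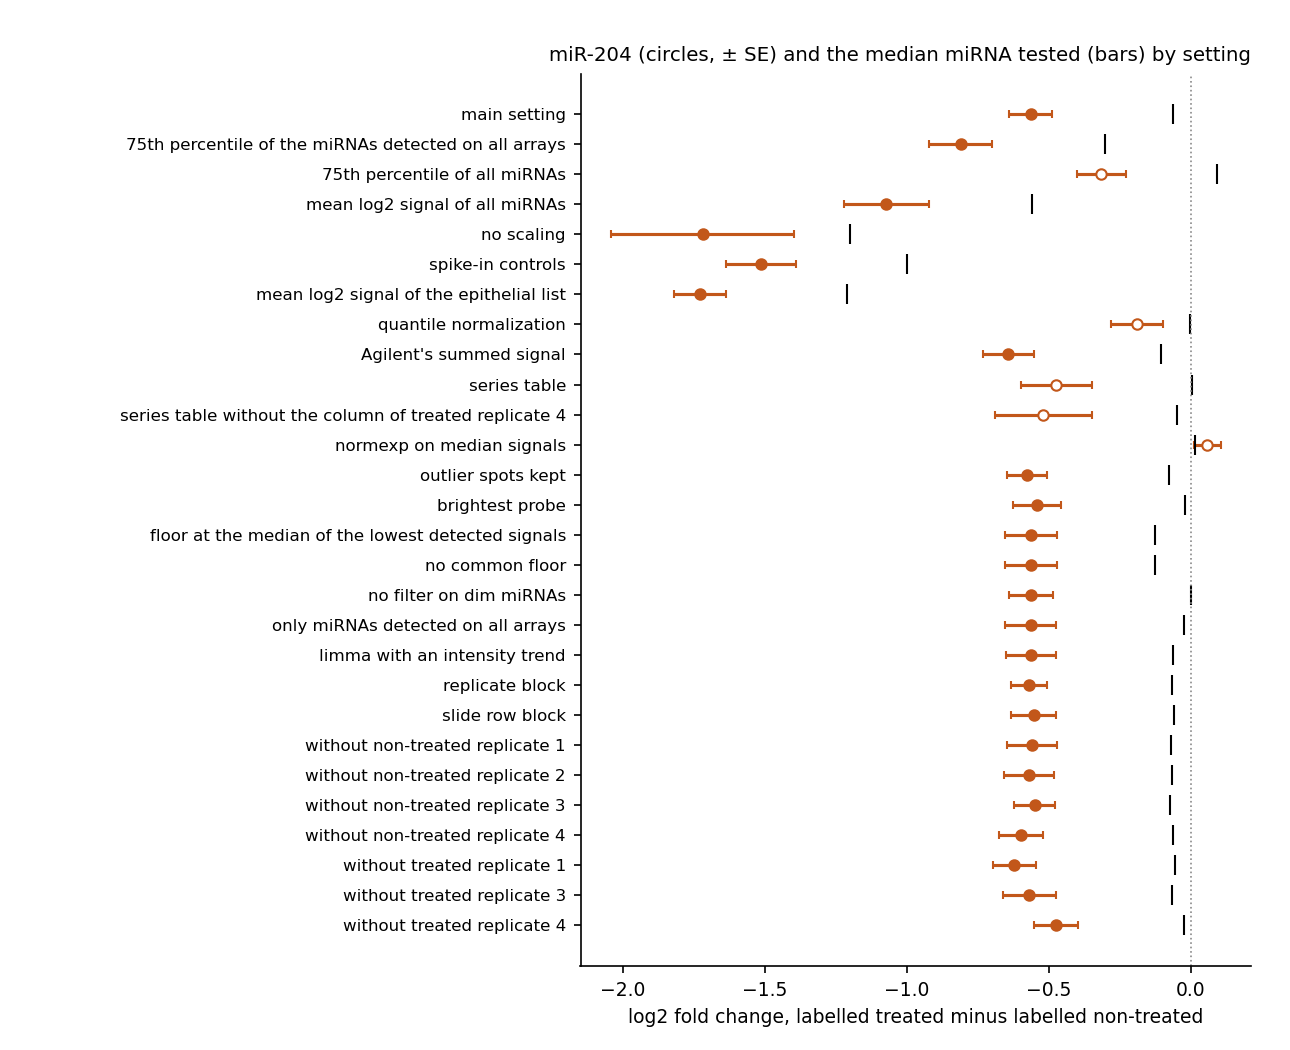
Log2 fold change of miR-204 (circles, ± SE) and of the median miRNA tested (black bars) in each setting, on a log2 axis of labelled treated minus labelled non-treated. Filled circles passed an adjusted p below 0.01 and open circles did not. miR-204 lies left of the median in each setting except normexp, where it is at 0.058.

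The probes of miR-204 differ in signal, and the deposited design names them A_54_P2396 and A_54_P2397. A_54_P2396 gave means of 38.2 to 61.6 on the non-treated and 12.2 to 20.2 on the treated arrays before scaling, with all 70 of its spots well above background. Its scaled log2 level was 5.22 on the non-treated and 4.68 on the treated arrays, a log2 fold change of -0.54 (SE 0.086, limma adjusted p = 0.00202 over 421 probes, of which 26.8% were called lower). The sum over both probes thus rests mostly on A_54_P2396.

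A_54_P2397 gave 6.11 to 12.0 on the non-treated and 1.77 to 3.63 on the treated arrays before scaling. On the treated arrays 0 of its 30 spots were well above background, against 35 of 40 on the non-treated arrays. By that criterion its level on the treated arrays is only bounded. On treated replicates 1, 3 and 4, 10, 10 and 8 of its 10 spots were positive and significant against background. Its scaled log2 means were 2.65 and 1.95 as measured, and no fold is given because the bound on the treated arrays, a mean log2 of 2.97, was higher than its non-treated mean. Agilent's own summed signal of miR-204, 28.4 to 48.0 on non-treated and 8.08 to 15.2 on treated arrays, leaves this probe out on treated replicates 1 and 4.

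Whether the probes changed alike could not be tested, since one of them is only bounded on the treated arrays. Spots of one probe on one array varied by 6.19% to 27.7% (coefficient of variation) for A_54_P2396 and by 14.4% to 68.4% for A_54_P2397, which leaves a standard error of the probe mean of 1.96% to 8.77% and of 4.56% to 21.6%.

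**Figure D3:**
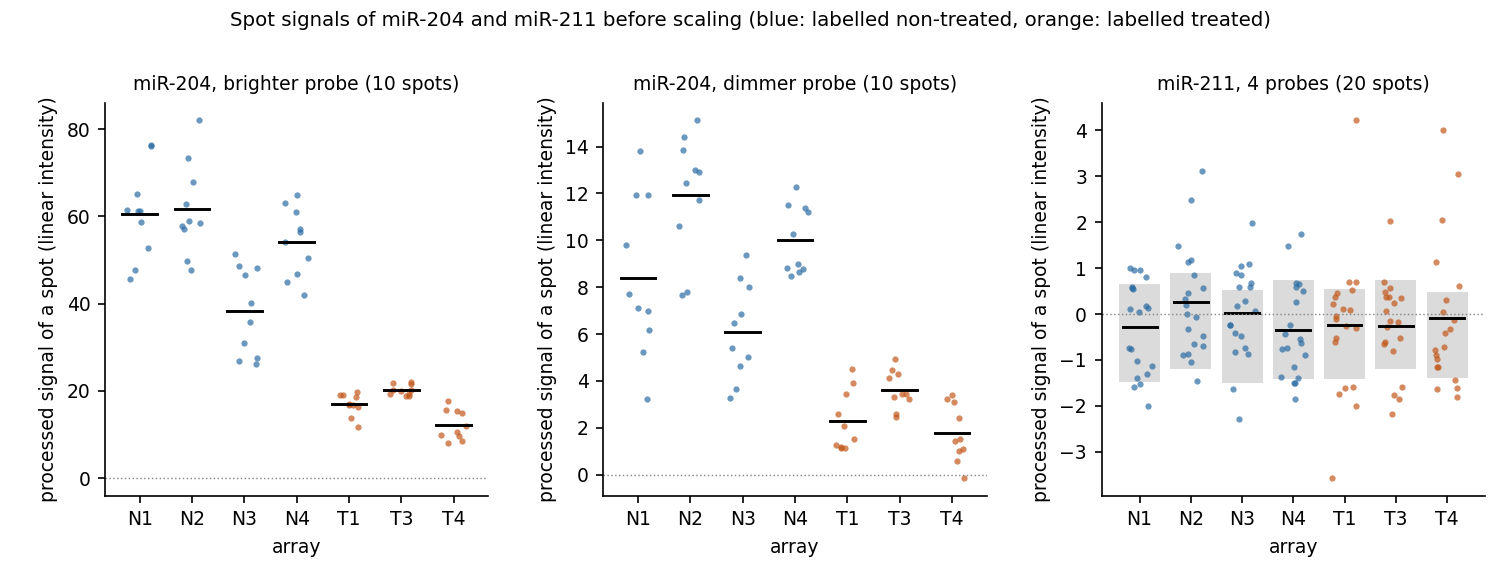
Processed signal of single spots before scaling on a linear intensity axis, by array (N, labelled non-treated; T, labelled treated), for the miR-204 probes A_54_P2396 (left) and A_54_P2397 (middle) and for the 4 probes of miR-211 (right). Points are spots, black lines are means, and grey boxes span the mean ± SD of the negative control spots. Each vertical axis has its own range; A_54_P2396 is at 12.2 to 61.6 on average, whereas the miR-211 spots scatter around 0 inside and around the grey boxes.

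miR-211 is read by 4 probes of 5 spots each, and was at background throughout. Of its 140 spots, 0 were well above background and 16 (11.4%) were positive and significant. Among the 3038 negative control spots, which match no miRNA, 328 (10.8%) were positive and significant and 19 were well above background. A spot of miR-211 thus passed the weaker test about as often as a spot with no target.

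Before scaling, the signals of the miR-211 probes summed to -1.11, 0.812, 0.107 and -1.42 on non-treated replicates 1 to 4 and to -0.990, -1.08 and -0.363 on treated replicates 1, 3 and 4. Values below 0 arise from background subtraction. All lay under the lowest signal of any miRNA called detected on the same group of arrays, which was 1.94 to 3.93 on the non-treated and 3.45 to 4.27 on the treated arrays. The groups overlapped, with means of -0.403 ± 1.04 (SD, n = 4) and -0.811 ± 0.391 (SD, n = 3) and a difference of -0.41 (exact 2-sided permutation test, p = 0.571). With 0 detections in either group no fold change is given, and a fold change of miR-204 against that of miR-211 could not be formed. The level of miR-211 is bounded here and not shown to be 0.

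Set against the negative control spots of the same array, the mean of the miR-211 spots was higher on 5 of 7 arrays. The difference of means was between -0.036 and 0.52 on the linear scale, where single negative control spots had an SD of 0.930 to 1.08. That SD is the spread of single spots and not of a mean, and the difference was not tested. The array with the largest difference was non-treated replicate 3, and treated replicate 3 had the smallest.

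The signals of the pair can be read beside each other for shared hybridization. On the 7 arrays the miR-204 probes summed to 13.96 to 73.6, and the miR-211 probes, whose target differs by A17U, to at most 0.812. Probes made for miR-211 therefore read no signal above the lowest detected one in RNA that lit the miR-204 probes. That lowest signal was 1.94 to 3.93 on non-treated and 3.45 to 4.27 on treated arrays, and shared hybridization under it would pass unseen. With miR-211 undetected, the reading of miR-211 by the miR-204 probes could not be judged. The sequences and lengths of the probes were not used here, so which bases of the target each covers was not tested.

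Epithelial and tubule miRNAs give the setting in which miR-204 moved. Of a list of 14, which holds the miR-192 and miR-194 cluster with miR-215, the miR-200 family (miR-200a, miR-200b, miR-200c, miR-141 and miR-429), miR-203 and the miR-30 family, 13 were tested and miR-215 was not detected on any array. 10 of the 13 rose on the treated arrays, where 23.7% of all miRNAs tested were called higher, 0 fell, and 3 did not pass the threshold. The list was drawn up with earlier results of these data known, and the 10 are all in the study's own table of changed miRNAs. The count is thus a description and no independent evidence. Their median log2 fold change was 0.90, beside -0.061 over all miRNAs. Without scaling this median was -0.25 and with spike-in scaling -0.050, so its sign depends on the scaling.

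The largest changes in the list were those of the proximal tubule miRNAs. miR-192 rose by 3.24 on the log2 scale (SE 0.23, limma adjusted p = 3.37e-05), from 7.56 on the non-treated to 10.80 on the treated arrays. miR-194, made from the same clusters, rose by 2.92 (SE 0.14, adjusted p = 6.87e-06). At the other end, miR-200c, which represses the mesenchymal factors Zeb1 and Zeb2, had a log2 fold change of -0.12 (SE 0.096, adjusted p = 0.30), and miR-203, a miRNA of stratified epithelia, one of 0.17 (SE 0.27, adjusted p = 0.635). None of the 13 had a fold change below that of miR-204, as the ordered plot of fold changes shows.

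**Figure D4:**
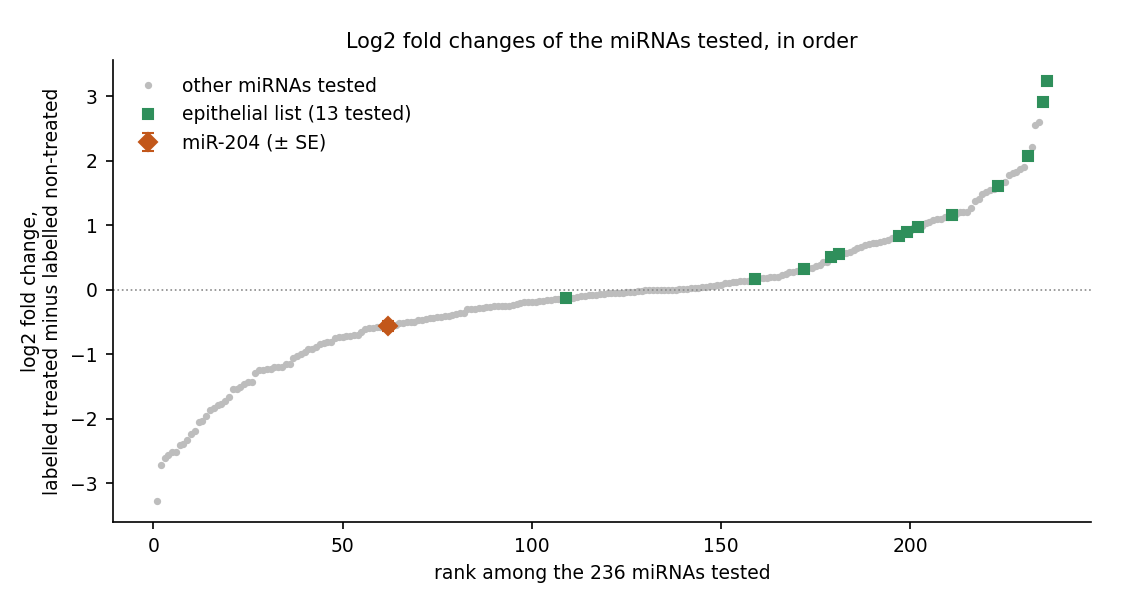
Log2 fold change (labelled treated minus labelled non-treated) of the 236 miRNAs tested, in order of rank. The diamond is miR-204 (± SE, rank 62), squares are the 13 epithelial miRNAs, and grey points the others. The squares lie between -0.12 and 3.24, all to the right of miR-204 at -0.56.

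The distance between miR-204 and these miRNAs can be taken within each array, where scaling cancels. The log2 signal of miR-204 minus the mean log2 signal of the 13 epithelial miRNAs was -2.44, -2.53, -2.57 and -2.60 on non-treated replicates 1 to 4 and -4.12, -4.28 and -4.39 on treated replicates 1, 3 and 4. The size of these values depends on the probes, and only their change between arrays is compared. They differed between the groups by -1.73 (SE 0.091, limma adjusted p = 4.04e-07, exact 2-sided permutation test p = 0.0571), a 3.31-fold shift of miR-204 against the list, and did not overlap. With this list as the scale, 204 of 236 miRNAs were called (86.4%), 189 of them lower (80.1%), so miR-204 was 1 of many below the epithelial miRNAs. This measure was added after the data were seen.

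Markers of other cell types moved with the groups too, in counts of miRNAs past the threshold. Over all miRNAs tested, 30.9% were called lower and 23.7% higher. Of the leukocyte list 6 of 6 fell on the treated arrays, with a summed scaled signal of 1283 to 1668 on non-treated and 328 to 354 on treated arrays. Of the mesenchyme list, which holds miR-21, miR-214 and both strands of miR-199a, 4 of 4 fell (13038 to 18186 against 3402 to 3454), as did 2 of 2 of smooth muscle (335 to 410 against 163 to 195). These lists moved in the direction of miR-204, with median log2 fold changes of -1.89, -2.46 and -0.94. The summed mesenchyme signal is mostly that of miR-21, whose mean log2 signal was 13.75 on non-treated and 11.56 on treated arrays.

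The proximal tubule list, at 208 to 375 against 2185 to 2347, moved the other way, with 2 of 2 tested higher and miR-215 detected on no array. All of its members are in the epithelial list above, so this is no separate result. The red cell list had 2 of 2 measured members higher (1079 to 2329 against 4615 to 5118), with miR-486 not matched to an array name. The endothelial list, with 0 of 2 called, ran at 1769 to 1955 against 1780 to 1899. The part of these cell sources in the result for miR-204 was not tested.

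The profiles most like that of miR-204 over the 7 arrays, among 185 other miRNAs detected on all of them, were those of let-7e, miR-24, miR-652, miR-27a and miR-28. Likeness was measured as the root mean square distance of log2 values after each miRNA was centred on its own mean, and was 0.0619 for let-7e and 0.101 for miR-28, beside a median of 0.391. Their log2 fold changes were -0.54 for let-7e, -0.60 for miR-24, -0.57 for miR-652, -0.72 for miR-27a and -0.46 for miR-28. None of these is in the epithelial list. The ranking favours miRNAs with a fold change near that of miR-204, and the lowest in that list was -0.12, so this absence adds no separate result.

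**Figure D5:**
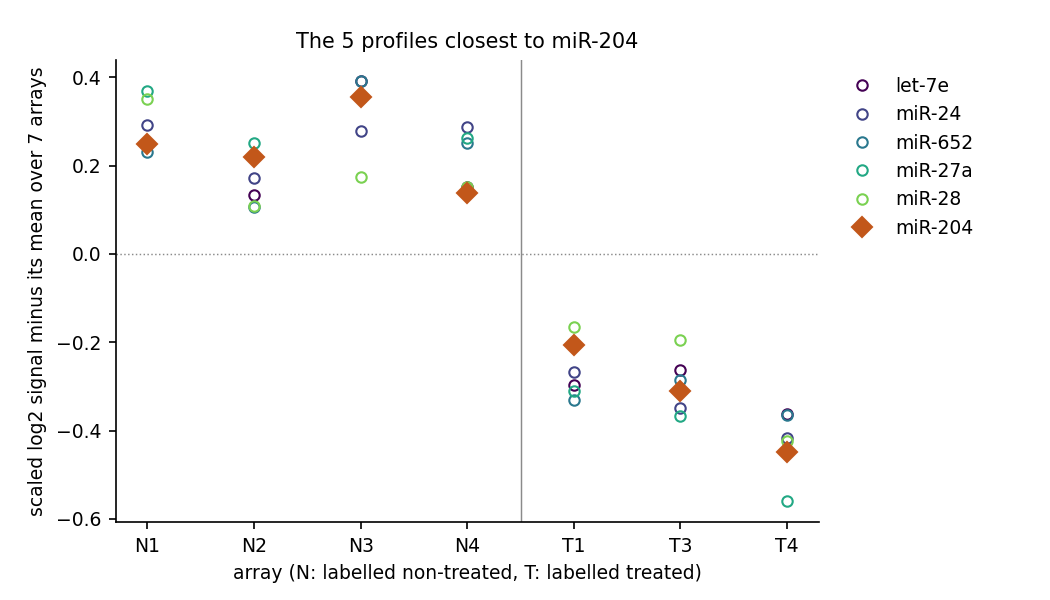
Scaled log2 signal of miR-204 (diamonds) and of the 5 miRNAs with the closest profiles (circles), each minus its own mean over the 7 arrays, by array (N, labelled non-treated; T, labelled treated). All 6 miRNAs lie above 0 on the non-treated and below 0 on the treated arrays, and miR-204 runs from 0.36 on non-treated replicate 3 to -0.45 on treated replicate 4.

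The direction was the same in both rows of the slide. This was fixed in advance, since every scaled treated value lay below every non-treated value, and only the sizes can differ. In the first row of the slide, with 1 treated and 2 non-treated arrays, the log2 fold change of miR-204 was -0.44, and in the other row, with 2 and 2, it was -0.63. With the row as a block it was -0.55 (limma adjusted p = 0.00199).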

How the data were processed

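Processed values of 7 arrays were analysed, 3 labelled treated and 4 labelled non-treated. The authors deposited Agilent Feature Extraction 10.7.3.1 output, which gives for every spot a linear, background-subtracted intensity with no normalization between arrays. The deposited series table holds the processed intensity of the first spot of each probe for 6 arrays and, for treated replicate 4, the error estimate of that intensity (1981 of 1981 rows, relative tolerance 1e-05).

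Control spots were left out. Spots not marked as outliers were averaged per probe, and probes were summed per miRNA. Each array was divided by a factor that equalizes the mean log2 signal over the 186 miRNAs found on all arrays. Signals under 6.71 were raised to that floor before log2. The labels were compared with limma 3.58.1 (R 4.3.3) in 236 miRNAs, those that at least 1 group showed on all of its arrays, with a threshold of Benjamini-Hochberg adjusted p below 0.01. A probe with no spot well above background in a group has only a bound there, set per array by the lowest probe with most spots well above background. Permutation tests are exact and 2-sided (SciPy 1.17.1). The fit was tested on simulated data. Arrays have no depth in reads.

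The members, lists and tests were chosen with earlier results of these data known. Named are both members, sequence neighbours, the 2 largest and 2 smallest fold changes of the epithelial list, and the 5 closest profiles. Marker lists were leukocytes, red cells, mesenchyme, endothelium, smooth muscle and proximal tubule. Alternatives covered scaling, signal column, background correction, floor, filter, probes, test, adjustment, replicate block and each array left out. Scaling by the epithelial list and by row of the slide was added after seeing the data. normexp used median spot signals, since mean signals were not used here.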

Additional observations from a re-analysis of the deposited data

Results flagged for a closer look

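The array of non-treated replicate 3 was dimmer overall than the rest of its group. Its mean log2 signal over the 186 miRNAs detected on all arrays was 6.65 before scaling, against 7.40 to 7.52 on the others. For the spike-in controls the mean was 10.17 on this array and 10.57 to 10.65 on the others. In both, the gap to the nearest array was more than 0.829 of the whole range of the group, Dixon's critical value for 4 arrays, which chance passes in about 5% of groups, and 2 of 9 groups of values checked did so. The values of miR-204 and miR-211 did not meet this criterion. Without this array, the log2 fold change of miR-204 was -0.55 (limma adjusted p = 0.00186).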

How the results depend on the processing

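Of 25 alternatives with a test for miR-204, 18 left it lower on the treated arrays and past the threshold, and 1 turned the direction. Its log2 fold change missed the threshold with the 75th percentile of all miRNAs (-0.31, limma adjusted p = 0.0196), quantile normalization (-0.19, adjusted p = 0.109), the series table with the column of treated replicate 4 (-0.47, adjusted p = 0.0361) and without it (-0.52, adjusted p = 0.0362), Bonferroni adjustment (-0.56, adjusted p = 0.0629), and probe A_54_P2397 alone, whose value of -0.27 is set by the floor on the treated arrays and is no fold change of that probe. It turned to 0.058 with normexp on median signals (adjusted p = 0.356) and, untested, was -0.44 within the first row of the slide. For these changes the cause was not tested, except that A_54_P2397 is held up by the floor. Leaving out each array gave -0.62 to -0.47 (adjusted p = 0.00138 to 0.00377). The number of miRNAs called, 129, became 204 with epithelial scaling, 56 with the series table, 59 with normexp, 65 with Bonferroni adjustment and 112 to 140 with an array left out. The median of the epithelial list turned to -0.25 without scaling and to -0.050 with spike-in scaling, and was 0.85 to 0.98 with an array left out. The replicate numbers do not pair the arrays by the labels, and deviations of same-numbered arrays correlated at -0.068 to 0.15, with 1 of 3 arrays correlating best with its own number. With the replicate number as a block, miR-204 was at -0.57 (adjusted p = 0.00605), and 94 miRNAs were called. miR-211 was not detected on any array and entered the test under 1 alternative alone, that without a filter, where the floor held all of its values and left no fold change to read. The difference between the members was not formed under any alternative. The t-test of the methods, run on the scaling, floor and filter used here, called miR-204 with and without Benjamini-Hochberg adjustment. The study's own list of changed miRNAs does not hold miR-204. Every change in that list is larger than 1 in size on the log2 scale. The legend of its heat map names a Bonferroni adjustment and 4 mice per group, against 3 treated arrays here. Why miR-204 is absent from the list was not tested. Precision is limited by 7 arrays, and for A_54_P2397 and miR-211 by signal over background.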

Other observations

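The column medians of the deposited series table were 0.445, 0.532, 0.470 and 0.346 on non-treated replicates 1 to 4 and 0.322 and 0.276 on treated replicates 1 and 3. For treated replicate 4 the column holds error estimates and had a median of 1.001. The columns with intensities carry no log, centring or scaling.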
